A study of Mus musculus with 8 samples.

Results

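The granule cell identity genes examined here are 10 genes that mark cerebellar granule cells, taken from a list of names, of 56691 genes in the deposited count table. They are the transcription factors *Neurod1*, *Etv1*, *Pax6*, *Zic1*, *Zic2* and *Barhl1*, the secreted synapse organisers *Cbln1* and *Cbln3*, the protocadherin *Fat2* and the vesicular glutamate transporter *Slc17a7*. Bulk RNA sequencing was performed on the cerebellum of 4 *Atm*-WT mice (ATM +/+, mice 2M, 7M, 13M and 32M) and 4 *Atm*-KO mice (ATM -/-, mice 1M, 7F, 11M and 12M), with a library for each mouse and the letters M and F as the labels give them. All mice were of the B6;129S4-Atmtm1Bal/J strain, 6 months old by the study's account, and untreated as far as the labels say. The knockout is carried in every cell from conception, so the comparison asks how the levels of these genes differ in a cerebellum that developed and aged without ATM, the kinase that signals DNA breaks. All 10 genes passed the filter on low counts, as did 22423 genes in all.

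Granule cells are the small excitatory neurons of the cerebellar cortex and the most numerous neurons of the brain. They arise from progenitors of the rhombic lip that divide in the external granule layer under Sonic hedgehog from Purkinje cells, then leave the cell cycle and migrate inward. Their axons, the parallel fibres, release glutamate onto Purkinje cell dendrites, and cerebellins secreted by granule cells bridge neurexins on the parallel fibre to GluD2 on the Purkinje cell.

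The knockout and the libraries were examined first. *Atm* (chr9:53348097-53448236, GRCm39) stood at 67.6, 80.0, 79.4 and 59.0 CPM (counts brought to a common library total with TMM factors) in *Atm*-WT mice 2M, 7M, 13M and 32M, and at 51.1, 44.3, 41.1 and 44.9 CPM in *Atm*-KO mice 1M, 7F, 11M and 12M. The genotypes did not overlap, while the log2 fold change of -0.66 (SE 0.103) had a p of 0.0775 by the quasi-likelihood method of edgeR after adjustment by Benjamini and Hochberg across the 22423 genes, and the two-sided exact permutation p was 0.0286. The counts are over the whole gene and do not show which exons were read. Total counts ranged from 65967130 in *Atm*-KO mouse 12M to 88030300.

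The library of *Atm*-KO mouse 12M stood apart, so the comparisons between genotypes are given with and without it. Markers of excitatory neurons of the cerebellar nuclei and brainstem, summed over the 5 that could be tested, reached 109.6 to 174 CPM in the other 7 libraries and 6.74 CPM in mouse 12M. *Slc17a6*, the glutamate transporter of these neurons, was at 73.6 to 115.7 CPM in the other mice and at 4.32 CPM in 12M, and *Lhx2* was at 0 in 12M. Summed oligodendrocyte markers were at 2025 CPM in 12M and from 3205 to 4365 CPM in the other mice. The 10 granule genes took 0.817% of all counts in 12M and from 0.571% to 0.643% in the others. Mouse 12M also had the lowest share of counts on the mitochondrial genome (0.565%, others 0.671% to 1.20%) and the highest on TEC genes, a GENCODE class of transcripts yet to be verified (0.529%), and 3.18% on lncRNA genes (others 1.81% to 3.24%). The TEC share was 0.354% to 0.529% in *Atm*-KO and 0.204% to 0.333% in *Atm*-WT mice, and its part in the results was not tested.

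Read per length, the granule genes spanned a wide range of levels. *Cbln3* had the highest level at 264.6 CPM per kilobase of merged exons, followed by *Cbln1* at 169, *Zic1* at 162, *Fat2* at 137.5 and *Neurod1* at 98.7. *Zic2* (63.3), *Slc17a7* (62.6) and *Etv1* (51.3) came next, and *Pax6* at 5.63 and *Barhl1* at 2.50 CPM per kilobase were lowest. The ranges over the 8 mice overlapped between *Cbln1* and *Zic1*, and *Zic2* lay above *Slc17a7* in 4 of 8 mice, so those neighbours had no firm order. The ranges also overlapped between *Zic1* and *Fat2*, *Fat2* and *Neurod1*, and *Slc17a7* and *Etv1*, although the first of each pair was higher in 8 of 8 mice. Divided by the longest transcript instead, *Slc17a7* (110.6) and *Etv1* (106) moved above *Neurod1* (104.5).

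None of the 10 granule genes passed the test between genotypes. edgeR called 0 of 10 at an adjusted p under 0.05, where it called 0.0178% of all genes tested. *Barhl1* alone had an unadjusted p under 0.05, in the direction of lower levels in *Atm*-KO mice that 8.48% of all genes showed. DESeq2 called 0 of 10 against 7.49% of its genes, and limma voom 0 of 10 against 0.0134%. The genotypes overlapped for every granule gene, while 11.6% of all genes tested had no overlap. A total of 6 of the genes were higher in *Atm*-KO mice and 4 lower, with a median log2 fold change of 0.06 beside -0.018 over all genes tested and -0.063 over the 4485 genes with the highest CPM. Without mouse 12M, 2 were higher and 8 lower, with a median of -0.03 beside -0.005 over all genes. The median of the genes with the highest CPM was not taken without 12M. There edgeR called 0 of 10 beside 0.0263%, and *Cbln3* alone had an unadjusted edgeR p under 0.05 (0.0437, with *Barhl1* at 0.053). In bulk tissue, fewer granule cells and less RNA per granule cell cannot be told apart.

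**Figure D1:**
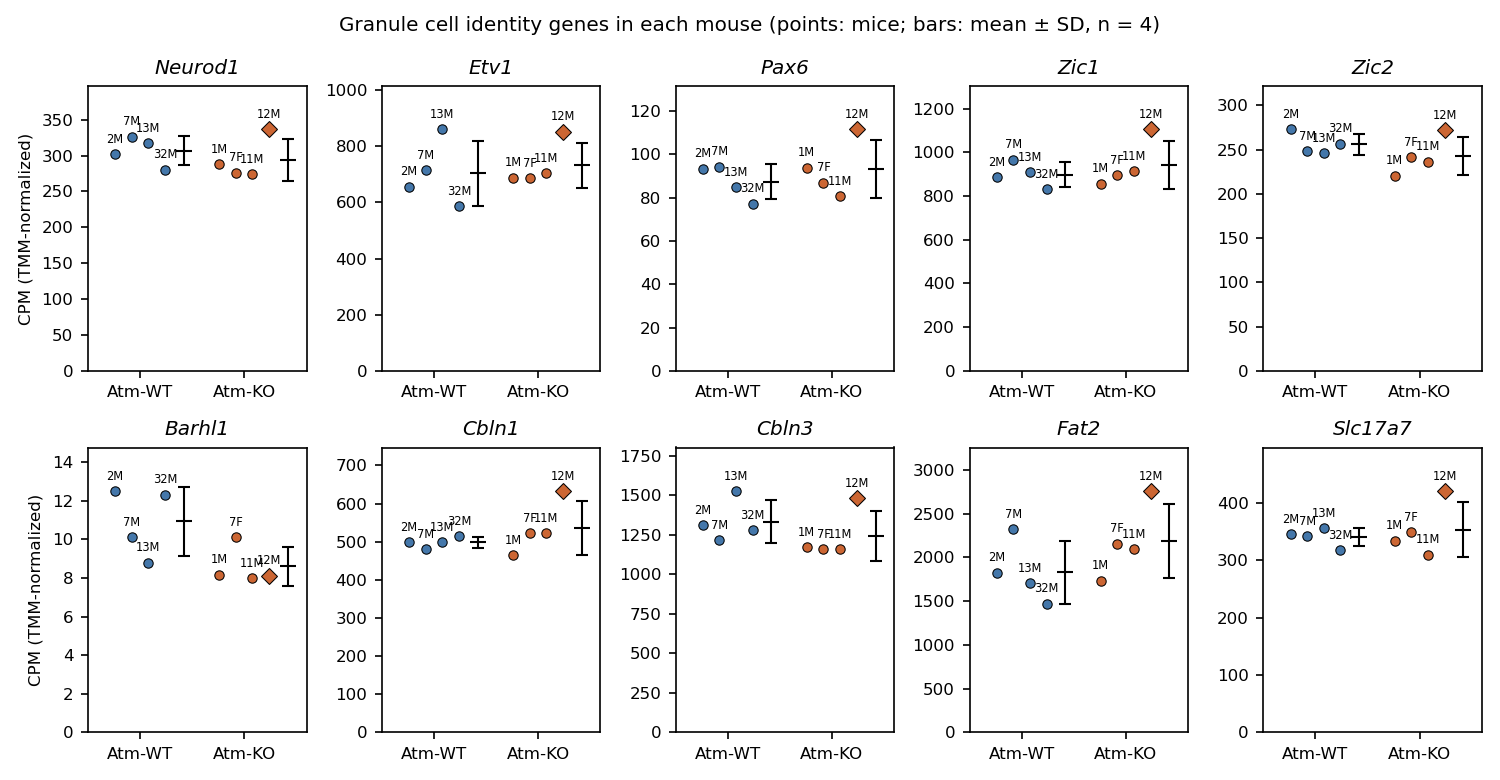
Level of each granule cell identity gene in CPM with TMM factors (vertical axis, from 0) in 4 *Atm*-WT mice (blue) and 4 *Atm*-KO mice (orange), each point a mouse with its number, the bars the mean ± SD and the diamond *Atm*-KO mouse 12M. Mouse 12M was the highest of the 4 *Atm*-KO mice for 9 of the 10 genes, and *Barhl1* was the exception.

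Among the transcription factors, *Neurod1* (chr2:79282865-79287294, minus strand), a basic helix-loop-helix factor needed for granule cell differentiation, stood at 302, 326, 317.5 and 280.1 CPM in *Atm*-WT mice and at 288, 276, 274 and 336 CPM in *Atm*-KO mice, in the order of mice given above. Mouse 12M was the highest of all 8, and the other *Atm*-KO mice lay within or just below the *Atm*-WT range. The log2 fold change was -0.06 (SE 0.0804, 95% interval -0.24 to 0.12, edgeR adjusted p = 0.706), and -0.13 (SE 0.0733, edgeR adjusted p = 0.426) without mouse 12M. *Cerkl*, on the same strand, shares 6.71% of its exon bases.

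*Etv1* (chr12:38828851-38920483, plus strand), an ETS factor that acts in granule cell maturation, was at 655.5, 714.5, 859.7 and 587.5 CPM in *Atm*-WT mice and at 688, 685, 704 and 852 CPM in *Atm*-KO mice. The *Atm*-WT mice spread more widely than 3 of the *Atm*-KO mice, and 13M and 12M stood above the rest of their groups. Its log2 fold change was 0.06 (SE 0.116, 95% interval -0.20 to 0.31, edgeR adjusted p = 0.824), and -0.03 without 12M.

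*Pax6* (chr2:105499234-105530952, plus strand), a paired homeodomain factor of rhombic lip derivatives, was at 93.4, 94.3, 84.8 and 77.2 CPM against 93.9, 87.0, 80.6 and 111.5 CPM. Apart from 12M, the *Atm*-KO mice lay inside the *Atm*-WT range. The log2 fold change was 0.09 (SE 0.101, 95% interval -0.13 to 0.31, edgeR adjusted p = 0.64) and -0.004 without 12M. Of its exon bases, 21.1% are shared with *Elp4* on the opposite strand, and without a stated strand setting of the counting the reads of both genes cannot be told apart there.

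The zinc finger factors *Zic1* and *Zic2* keep granule cell precursors dividing and persist in mature granule cells. *Zic1* (chr9:91240111-91247863, minus strand) was at 886, 966, 908 and 829.9 CPM in *Atm*-WT mice and at 857, 895, 913 and 1104 CPM in *Atm*-KO mice. Only mouse 12M left the *Atm*-WT range. The log2 fold change was 0.07 (SE 0.0905, 95% interval -0.13 to 0.27, edgeR adjusted p = 0.699), and -0.02 without 12M. *Zic2* (chr14:122711827-122717264, plus strand) was at 273, 249, 246 and 257 CPM against 221, 241, 236.5 and 272 CPM. Here 3 of the 4 *Atm*-KO mice lay below every *Atm*-WT mouse and 12M near the top of that range. Its log2 fold change was -0.08 (SE 0.073, 95% interval -0.24 to 0.08, edgeR adjusted p = 0.58), and -0.14 (edgeR adjusted p = 0.393) without 12M. The antisense lncRNA *2610035F20Rik* shares 31.5% of the exon bases of *Zic2*.

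*Barhl1* (chr2:28797691-28806680, minus strand), a homeodomain factor of the granule and rhombic lip lineage, had the lowest level and the largest difference. It stood at 12.5, 10.1, 8.79 and 12.3 CPM in *Atm*-WT mice and at 8.17, 10.1, 7.98 and 8.11 CPM in *Atm*-KO mice, or 548 to 1058 counts. Mice 1M, 11M and 12M lay below every *Atm*-WT mouse, while 7F lay among them. The CPM had an SD of 1.81 among *Atm*-WT mice and of 1.02 among *Atm*-KO mice (n = 4 each), and the log2 fold change was -0.35 (SE 0.14, 95% interval -0.66 to -0.04). Its unadjusted edgeR p was 0.0284, the edgeR adjusted p 0.196, and a two-sided exact permutation test gave 0.0571, where 0.0286 is the smallest p that 4 against 4 mice allow. Without 12M the log2 fold change was -0.32 (edgeR adjusted p = 0.358). It was the sole granule gene for which 12M was not the highest *Atm*-KO mouse.

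Neither secreted organiser passed the test, and their values lay on opposite sides of 0. *Cbln1* (chr8:88195033-88199261, minus strand), the cerebellin that holds parallel fibre synapses on Purkinje cells together, was at 499, 481, 499.6 and 515 CPM in *Atm*-WT mice and at 464, 523, 522.5 and 633 CPM in *Atm*-KO mice. The *Atm*-WT mice were close together, at 498 ± 13.8 CPM, and the *Atm*-KO mice fell on both sides of them, at 536 ± 70.5 CPM (SD, n = 4 each). Its log2 fold change was 0.10 (SE 0.0886, 95% interval -0.09 to 0.30, edgeR adjusted p = 0.538), and 0.01 without 12M. The lncRNA *Gm19872* on the opposite strand shares 19.3% of its exon bases. *Cbln3* (chr14:56116370-56121849, minus strand), which is made almost wholly by granule cells and assembles with *Cbln1* before secretion, was at 1311, 1215, 1527 and 1278 CPM against 1172, 1158.5, 1157 and 1483 CPM. Mice 1M, 7F and 11M lay close together and below every *Atm*-WT mouse, with 12M above 3 of the 4 *Atm*-WT mice. The log2 fold change was -0.10 (SE 0.104, 95% interval -0.33 to 0.13, edgeR adjusted p = 0.619). Without 12M it was -0.20 (SE 0.0876) with an unadjusted edgeR p of 0.0437 and an edgeR adjusted p of 0.338, and without *Atm*-WT mouse 13M it was -0.01 (edgeR adjusted p = 0.966).

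*Fat2* (chr11:55141435-55227483, minus strand), a giant protocadherin of granule cells and their parallel fibres, stood at 1828, 2325, 1708 and 1472.5 CPM in *Atm*-WT mice and at 1737, 2158, 2094 and 2760.5 CPM in *Atm*-KO mice. Mouse 12M was the highest of all 8, and the remaining *Atm*-KO mice lay inside the *Atm*-WT range. Its log2 fold change of 0.25 was the largest upward one among the granule genes (SE 0.157, 95% interval -0.09 to 0.60, edgeR adjusted p = 0.38), and 0.12 (SE 0.137, edgeR adjusted p = 0.719) without 12M.

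*Slc17a7* (chr7:44813305-44825644, plus strand), which encodes VGLUT1 and loads glutamate into the vesicles of parallel fibres, was at 346, 343, 356 and 318 CPM in *Atm*-WT mice and at 334.5, 349, 309.8 and 421 CPM in *Atm*-KO mice. Apart from 12M, the *Atm*-KO mice lay in or just under the *Atm*-WT range. The log2 fold change was 0.05 (SE 0.0904, 95% interval -0.14 to 0.25, edgeR adjusted p = 0.775), and -0.04 without 12M.

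**Figure D2:**
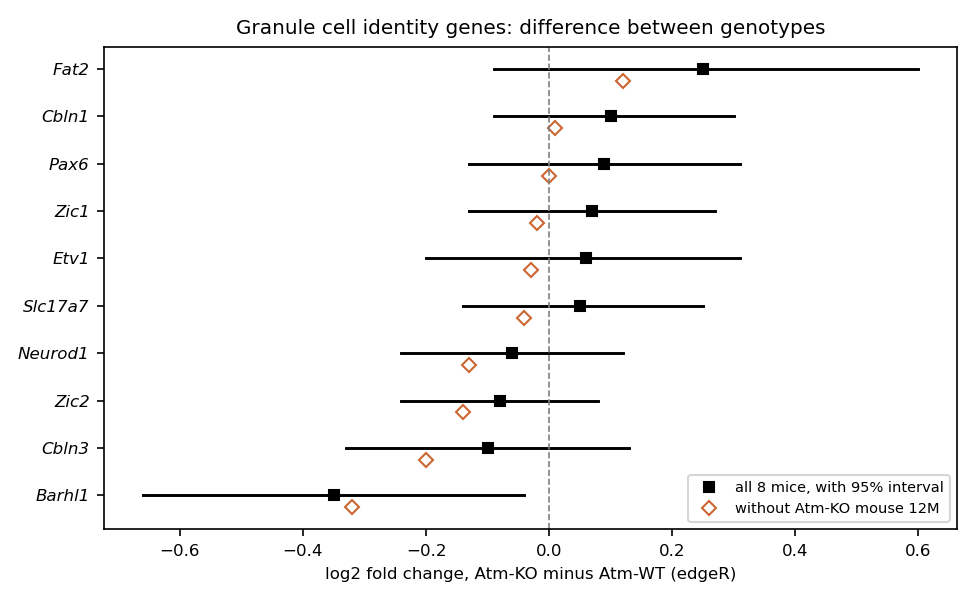
Log2 fold change of each granule cell identity gene, *Atm*-KO minus *Atm*-WT (horizontal axis), with black squares and 95% intervals for all 8 mice and open orange diamonds without *Atm*-KO mouse 12M. Of the 10 intervals, 9 cross 0 and that of *Barhl1* runs from -0.66 to -0.04, and the diamond lies to the left of the square for every gene but *Barhl1*.

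Mouse 12M set much of the spread. It was the highest of all 8 mice for 6 granule genes (*Neurod1*, *Pax6*, *Zic1*, *Cbln1*, *Fat2* and *Slc17a7*), and lay 16.9% (*Zic2*) to 38.3% (*Fat2*) above the mean of the other *Atm*-KO mice for 9 of 10, with *Barhl1* at -7.36%. Averaged over the 10 genes, the log2 level relative to the *Atm*-WT mean was 0.218 in 12M, -0.105 in 1M, -0.019 in 7F and -0.084 in 11M, and from -0.087 to 0.041 in *Atm*-WT mice. The *Atm*-KO mean was 0.002 ± 0.148 (SD, n = 4) with 12M and -0.069 ± 0.045 (n = 3) without it. In *Atm*-WT mouse 32M, where the nuclear and brainstem markers were highest (174 CPM in sum), the granule genes were lowest of the *Atm*-WT mice, at -0.087, while *Atm*-KO mouse 1M had the lowest granule mean of all 8 mice at a nuclear and brainstem sum of 113 CPM. The part of tissue composition in these levels was not tested.

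Deviations from the genotype mean were then compared between granule genes over the 8 mice, as a description. Of 45 pairs, 38 had a positive Pearson correlation and 30 exceeded 0.5, with a median of 0.62. *Neurod1* and *Zic1*, and *Zic1* and *Fat2*, each reached 0.91, and *Etv1* and *Barhl1* were lowest at -0.77. *Neurod1* had the highest median correlation with the other granule genes (0.76) and *Barhl1* the lowest (-0.19). Without mouse 12M the median over the 45 pairs was 0.07 and 24 were positive. The points also share their scaling, and with library size alone the median was 0.57.

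**Figure D3:**
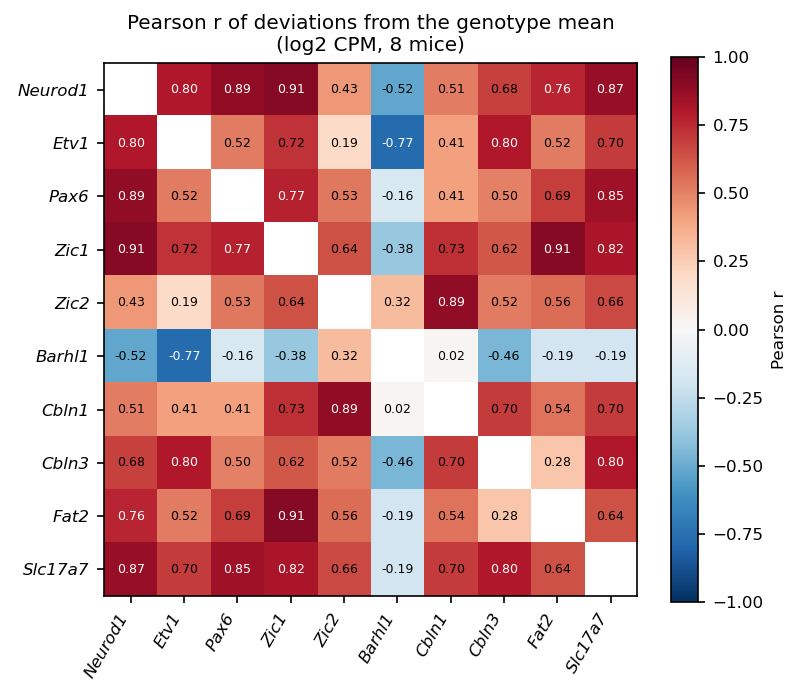
Pearson correlation between granule cell identity genes of their deviations from the genotype mean (log2 CPM, 8 mice), from blue at -1 to red at 1. *Barhl1* is the one gene whose correlations are mostly below 0, and the other 9 genes correlate positively with one another, from 0.19 to 0.91.

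Outside the list, the protein-coding genes at 10 CPM or more whose deviations were most like the mean of the granule genes were *Lhfpl6* (r = 0.988), *Zfp777* (0.979), *Kcnc1* (0.975), *Mknk2* (0.97) and *Car10* (0.966), the top 5 of 9728 genes over the same 8 mice. They were picked for this correlation, whose median over the 9728 genes was -0.011. *Kcnc1*, which encodes the Kv3.1 potassium channel of fast-firing neurons, was at 649.7, 634, 605 and 588 CPM in *Atm*-WT mice and at 628, 665, 635 and 801 CPM in *Atm*-KO mice. The within-genotype SD of log2 CPM ran from 0.101 for *Zic2* to 0.275 for *Fat2*, beside a median of 0.117 over those 9728 genes.

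The promoters of *Neurod1* and *Barhl1*, the genes with the highest and the lowest median correlation with the other granule genes, are shown for the 250 bases before their start (RefSeq, GRCm38.p6, an earlier build than that of the gene positions above, minus strand, 5′ to 3′), at chr2:79456637-79456886 and chr2:28916669-28916918. Capitals mark the E-boxes that proneural factors such as NEUROD1 bind, searched as CAGATG on either strand and CAGCTG, which reads the same on both.
Neurod1: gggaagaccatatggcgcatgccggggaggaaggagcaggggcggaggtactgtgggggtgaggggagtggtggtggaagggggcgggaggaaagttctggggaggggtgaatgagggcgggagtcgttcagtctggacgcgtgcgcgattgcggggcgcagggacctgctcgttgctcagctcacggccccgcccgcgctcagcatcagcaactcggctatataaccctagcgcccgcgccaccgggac
Barhl1: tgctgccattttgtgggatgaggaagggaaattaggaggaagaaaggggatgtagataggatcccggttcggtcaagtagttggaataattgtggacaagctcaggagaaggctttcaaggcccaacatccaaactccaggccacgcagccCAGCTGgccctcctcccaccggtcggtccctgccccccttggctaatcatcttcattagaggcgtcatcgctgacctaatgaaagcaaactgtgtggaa
The stretch of *Barhl1*, the upstream one of 2 listed, held a CAGCTG that began at position -99 from the start, and that of *Neurod1* held neither motif. RefSeq listed promoters for 8 of the 10 granule genes, all but *Zic2* and *Cbln1*. In windows from 250 bases before to 50 after the start, 3 of their 11 promoters (27.3%), from *Barhl1* and *Etv1*, held such an E-box, beside 30.6% of 32851 promoters in the table.

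Ratios between related genes within a library do not depend on the scaling between libraries. The log2 ratio of *Cbln1* to *Cbln3* was -1.39, -1.34, -1.61 and -1.31 in *Atm*-WT mice and -1.34, -1.15, -1.15 and -1.23 in *Atm*-KO mice. Here 3 *Atm*-KO mice lay above every *Atm*-WT mouse and 1M lay among them, a mean difference of 0.20 (two-sided exact permutation p = 0.0571, 0.229 after Benjamini-Hochberg adjustment over 4 ratios). Without 12M the difference was also 0.20 (exact permutation p = 0.114), and without *Atm*-WT mouse 13M it was 0.13 (exact permutation p = 0.0857). The ratio of *Zic1* to *Zic2* was 1.81 ± 0.134 against 1.95 ± 0.053 (log2, SD, n = 4 each, exact permutation p = 0.143, adjusted 0.286), and that of *Neurod1* to its paralog *Neurod2* 1.63 ± 0.18 against 1.79 ± 0.151 (exact permutation p = 0.229, adjusted 0.305). Without 12M these differences were 0.12 (exact permutation p = 0.286) and 0.18 (exact permutation p = 0.229). *Slc17a7* over *Slc17a6*, the transporters of cortical parallel fibres and of nuclear and brainstem neurons, was 97.4 on the linear scale in 12M and from 2.75 to 4.83 in the other mice. On the log2 scale it differed by 1.07 between genotypes (exact permutation p = 0.771, adjusted 0.771), and by -0.10 without 12M.

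**Figure D4:**
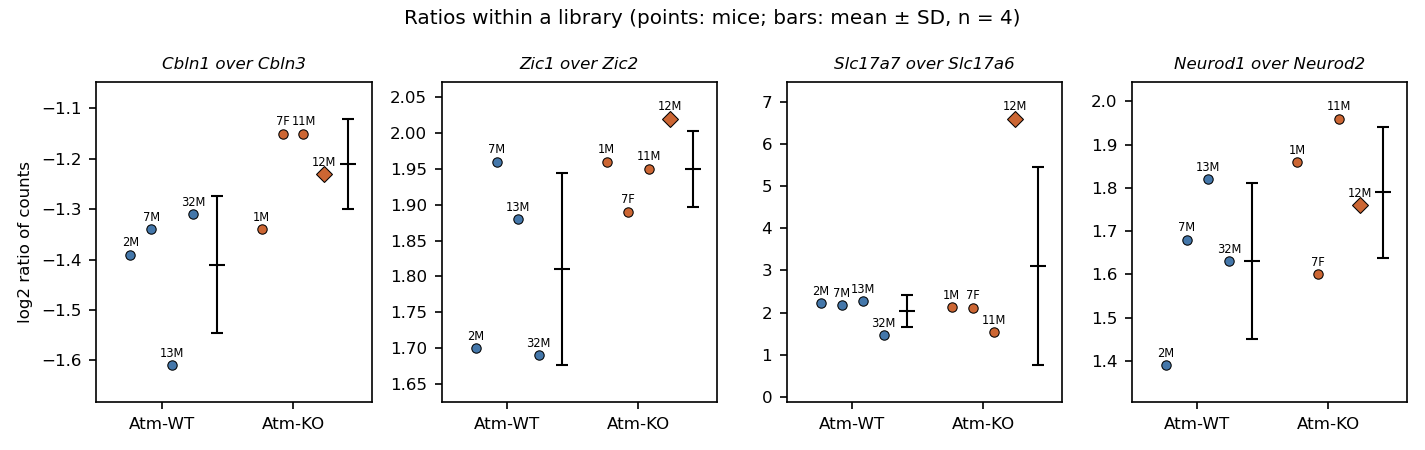
Log2 ratio of counts of the paired genes (vertical axes, which do not start at 0) in 4 *Atm*-WT mice (blue) and 4 *Atm*-KO mice (orange), with the mean ± SD and a diamond for *Atm*-KO mouse 12M. The genotypes overlap in all 4 ratios, and *Slc17a7* over *Slc17a6* is 6.61 in 12M and from 1.46 to 2.27 in the other mice.

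Other genes of the granule lineage, and genes of the Sonic hedgehog response, were counted in the same test. edgeR called none of them, a count near its share of 0.0178% over all genes tested. Of 20 further genes of mature granule neurons, 12 were higher and 8 lower, with a median log2 fold change of 0.05 (6 higher and 14 lower without 12M, with a median of -0.03) and a smallest edgeR adjusted p of 0.12. That gene was *Grin2c*, the NMDA receptor subunit that granule cells take up as they mature, at 203, 202, 194 and 162 CPM in *Atm*-WT mice and at 255, 219, 219 and 325 CPM in *Atm*-KO mice. Its groups did not overlap, and its log2 fold change was 0.42 (SE 0.124), and 0.28 (edgeR adjusted p = 0.241) without 12M. *Grm4*, a presynaptic glutamate receptor of parallel fibres, was at 410.8 ± 33.6 against 485 ± 83.0 CPM, and *Neurod2*, a paralog of *Neurod1*, at 99.5 ± 11.9 against 85.1 ± 12.6 CPM (SD, n = 4 each). With edgeR adjusted p of 0.26 and 0.281, neither passed, and their log2 fold changes of 0.24 and -0.22 became 0.13 and -0.31 without 12M.

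Genes of granule cell progenitors and of the Sonic hedgehog response numbered 12. *Atoh1*, the factor that defines the progenitors, had 0 to 2 counts a library and could not be tested. In bulk tissue, the cells in which the remaining genes of this list were read cannot be told. Of the other 11, 5 were higher and 6 lower, with a median log2 fold change of -0.03 (4 higher and 7 lower without 12M, -0.06), and scaling by library size alone turned this to 7 higher and 4 lower (0.02). *Gli2*, a transcription factor of the hedgehog response, was at 9.46, 8.76, 8.05 and 7.92 CPM in *Atm*-WT mice and at 7.30, 7.25, 6.29 and 6.45 CPM in *Atm*-KO mice. The highest *Atm*-KO mouse lay under the lowest *Atm*-WT mouse, with a log2 fold change of -0.32 (SE 0.115, edgeR adjusted p = 0.162), and -0.30 without 12M.

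The binding partners and further members of the cerebellin family numbered 7, of which 2 were higher and 5 lower in *Atm*-KO mice, with a median log2 fold change of -0.07 (3 higher and 4 lower without 12M, -0.05). *Nrxn3*, a neurexin, had a log2 fold change of 0.07 (SE 0.0857), and 0.03 without 12M. *Cbln2* and *Cbln4*, cerebellins of other neurons, were at 0.237 and 0.0888 CPM in 12M, while *Cbln2* reached 11.8 to 22.3 CPM and *Cbln4* 3.17 to 7.07 CPM elsewhere. Of 18 paralogs of the granule genes that could be tested, 5 were higher and 13 lower, with a median of -0.16 (8 higher and 10 lower without 12M, -0.02). *Etv4*, a paralog of *Etv1*, was at 6.11 ± 0.64 against 7.83 ± 0.57 CPM (SD, n = 4 each) with no overlap (log2 fold change 0.36, SE 0.122, edgeR adjusted p = 0.151, and 0.31 without 12M). *Fat1*, a paralog of *Fat2*, had a log2 fold change of 0.13 (SE 0.136), and 0.06 without 12M.

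Markers of the other cells of the tissue were set beside the granule genes. edgeR called none of them, a count near its share of 0.0178% over all genes tested. All of the 8 markers of inhibitory interneurons, 8 of astrocytes and Bergmann glia, 9 of oligodendrocytes, 6 of microglia and 6 of choroid plexus were lower in *Atm*-KO mice, with median log2 fold changes of -0.11, -0.18, -0.17, -0.34 and -0.60, except that scaling by library size alone left 1 interneuron marker higher. Among all genes tested 46.9% were higher in *Atm*-KO mice, and among the 4485 with the highest CPM 29.0%. The share was 37.2% for genes from 14.0 to 51.6 CPM and 45.8% from 2.39 to 14.0 CPM, where many of these markers lie. Scaling by library size alone left 12455 of all genes tested higher and 9968 lower. Without 12M the medians of the lists named above were, in the same order, -0.11, -0.14, -0.05, -0.26 and -0.71. The oligodendrocyte markers were then 2 higher and 7 lower. Purkinje cell markers were 1 higher and 7 lower (median -0.13, and -0.15 without 12M), unipolar brush cell markers 2 higher and 4 lower (-0.14, and -0.21 with 1 higher and 5 lower without 12M), and endothelial and mural markers 1 higher and 7 lower (-0.24, and -0.13 without 12M). The 5 nuclear and brainstem markers were all lower with 12M (-0.38) and 3 higher, 2 lower without it (0.02). *Pvalb*, a calcium buffer of molecular layer interneurons and Purkinje cells, had a log2 fold change of -0.29 (SE 0.069, edgeR adjusted p = 0.0942), and *Eomes*, which marks unipolar brush cells, of -0.80 (SE 0.204, edgeR adjusted p = 0.102). Without 12M they were -0.29 and -0.73.

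Summed choroid plexus markers ranged from 773 to 1547 CPM in *Atm*-WT mice and from 421 to 1202 CPM in *Atm*-KO mice, with *Ttr*, the transthyretin gene, as the main contributor. Summed microglia markers ranged from 129.8 to 171 CPM against 101 to 133 CPM, and endothelial and mural markers from 271.5 to 318 CPM against 204 to 279.8 CPM. Summed interneuron markers did not overlap, with 2507 to 2713 CPM against 2226 to 2396 CPM. The sum of the 10 granule genes ranged from 5627 to 6723.5 CPM in *Atm*-WT mice, from 5863.5 to 6384 CPM in *Atm*-KO mice 1M, 7F and 11M, and was 7981 CPM in 12M. The part of these cell types in the levels of the granule genes was not tested.

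**Figure D5:**
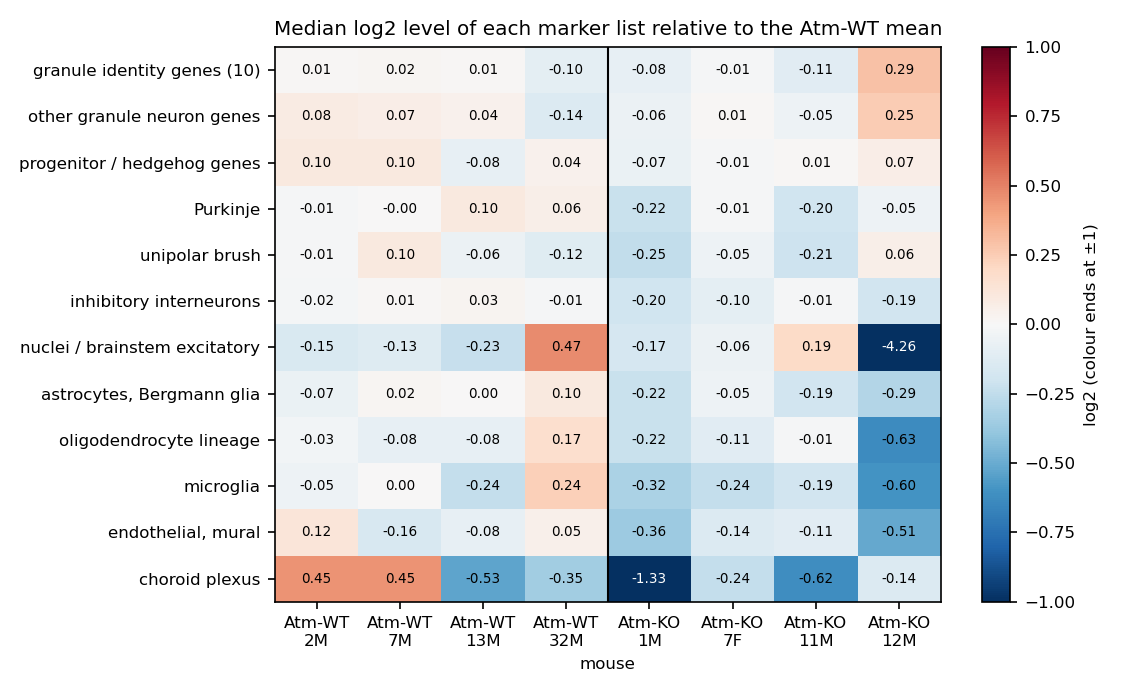
Median log2 level of each list of cell type markers relative to the *Atm*-WT mean in each mouse, the columns being mice and the rows lists, with the value printed in each cell and the colours ending at -1 and 1. In *Atm*-KO mouse 12M the granule cell identity genes are at 0.29 and the other granule neuron genes at 0.25, while the nuclear and brainstem markers are at -4.26 and the oligodendrocyte markers at -0.63.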

How the data were processed

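Frozen cerebellum was sequenced by Novogene, and the authors used FastQC 0.11.9 for read quality, STAR for alignment to GRCm39 and featureCounts for counting, and deposited raw counts per gene that were not normalized. Strand and pair settings are not given in the sources used here, and between 67.3% and 73.3% of counts from 1 to 50 were even, so a count may stand for a read or for a read pair and the depths given are in counts. Identifiers were matched without version to GENCODE vM39 on GRCm39 (98.8% of 56691), a later release than the one the authors name. Positions, exon lengths and overlaps come from it, so levels per kilobase rest on exon lengths that may differ from those counted.

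Groups were taken from the labels. edgeR 4.0.16 in R 4.3.3 was used with filterByExpr, TMM factors, glmQLFit and glmQLFTest, no covariate, and Benjamini-Hochberg adjustment over all genes tested. CPM used TMM factors and log2 CPM a prior count of 2. Single values were tested over all 70 splits of the mice. Each list was described by counts and its median. From lists other than the granule genes, the named genes were the 2 highest and 2 lowest log2 fold changes at a mean of 1 CPM or more, from which a few are shown, and *Atoh1* was named after its counts were seen. Members and lists were chosen with earlier results of these data known. Alternatives were DESeq2 1.42.0, limma 3.58.1 voom, a surrogate variable of sva 3.50.0, other scalings, filters, halved counts and each mouse left out. Correlations, lists and genes outside the granule genes without mouse 12M were chosen after seeing the data. For depth, libraries held 65967130 counts or more.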

Additional observations from a re-analysis of the deposited data

Results flagged for a closer look

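For the 10 granule genes, their mean log2 level and the 4 ratios, 30 groups of 4 mice were searched for a mouse far from the other 3 by Dixon's criterion (gap over range above the critical value for 4 values), which chance alone meets in about 1.5 of 30, and 5 were found. *Etv1* was at 852 CPM in *Atm*-KO mouse 12M and from 685 to 704 CPM in the other 3, and *Cbln3* at 1483 CPM in 12M and from 1157 to 1172 CPM in the others. *Barhl1* was at 10.1 CPM in *Atm*-KO mouse 7F, the one mouse labelled F, and from 7.98 to 8.17 CPM in the other 3. The log2 ratio of *Slc17a7* to *Slc17a6* was 6.61 in *Atm*-KO mouse 12M, with 1.53 to 2.13 in the others, and 1.46 in *Atm*-WT mouse 32M, with 2.17 to 2.27 in the others. In 3 of the 5 cases the mouse was 12M, which also had the lowest sums of nuclear, brainstem and oligodendrocyte markers, and the part of that in these values was not tested.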

How the results depend on the processing

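None of the 10 granule genes was called under any of the 18 alternatives of tool, scaling, filter, covariate or mice (0 of 10 in each). Their median log2 fold change was 0.055 and ran from -0.052 (surrogate variable) to 0.107 (library size alone), with 0.099 among protein-coding genes alone. With a mouse left out it ran from -0.033 (12M) and -0.001 (32M) to 0.094 (11M), with 0.093 without 13M and 0.092 without 7F. Of 180 log2 fold changes, 171 kept their sign and 9 turned, with adjusted p from 0.106 to 0.988. With the surrogate variable as a covariate they were -0.05 for *Etv1*, -0.033 for *Pax6*, -0.028 for *Zic1* and -0.055 for *Slc17a7*, and with each mouse left out in turn they ran from -0.025 to 0.183, -0.004 to 0.171, -0.015 to 0.113 and -0.041 to 0.127, the lowest being without 12M (and *Etv1* -0.023 without 32M). The difference in the log2 ratio of *Slc17a7* to *Slc17a6* ran from -0.102 (without 12M) to 1.589. The cause was not tested. Genes called over the whole table numbered 4, and 1552 with DESeq2, 591 without a filter on low counts, 15 with the surrogate variable, 2 among protein-coding genes alone, and from 1 to 27 with a mouse left out (27 without 13M, 10 without 32M, 6 without 12M). Without *Atm*-KO mouse 1M the ratio of *Cbln1* to *Cbln3* differed by 0.24, and without *Atm*-WT mouse 7M that of *Zic1* to *Zic2* by 0.20, both with an exact permutation p of 0.0286, the smallest that 3 against 4 mice allow. With the other mice left out in turn, these differences ran from 0.134 to 0.233 (exact permutation p from 0.0571 to 0.143) and from 0.107 to 0.172 (0.114 to 0.286). The granule gene with the lowest counts, *Barhl1*, had at least 548 counts in every library. No paired analysis was possible because the groups share fewer than 2 replicate numbers.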
